A study of Mus musculus with 2 samples.

Results

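Granzymes A, B and K (Gzma, Gzmb, Gzmk), perforin (Prf1), the granule membrane protein Nkg7, Fas ligand (Fasl) and cystatin F (Cst7) were followed by name through immune cells of tumour-bearing mouse lungs. They are 7 of the 16184 genes in the tables, and were read in 6 populations defined by detection of Cd8b1, Cd4, Foxp3, Trdc, Ncr1 or Siglech. All mice were Scgb1a1cre /iDTR animals, in which a diphtheria toxin receptor depends on a Cre driven by the club cell gene Scgb1a1, and all had received HKP1 lung tumour cells by tail vein. Both groups were given tamoxifen (2 mg per 20 g on days 3 to 7), an anti-PD-1 antibody (clone RMP1-14, 250 µg on day 6) and 4 Gy of radiation daily on days 10 to 12. They differed in what was given on days 8 and 9: diphtheria toxin (2 doses of 600 ng per 20 g) in the DT group and, by its name, PBS in the other. The protocol text printed for both samples describes the toxin alone, and no age is given. Viable CD45+ lung cells were sorted 24 to 48 h after radiation by the sample labels, and the series asks how club cells that respond to radiation bear on checkpoint blockade.

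Each group is a single library, for which the design names 4 mice, so no comparison below has a replicate and none carries a test. The tables held 5702 PBS and 6203 DT cells with medians of 3719 and 2909 UMIs (unique molecular identifiers, one per captured mRNA), of which 5651 and 5896 were kept. Intervals are exact 95% intervals and cover counting error only. Levels are CPM, the UMIs of a gene summed over a population and scaled to a fixed total, and a gene with fewer than 20 UMIs in the 2 libraries together was not compared. The sexes of the cells were unequal between the libraries: by Xist and Y-linked genes, 84.6% to 93.5% of the cells that could be called in the 6 populations were male in PBS, against 11.8% to 32.4% in DT. Sex and treatment cannot be told apart in the pooled values, and the values within each sex are therefore given beside the main results. Fewer cells of a state and less RNA per cell also cannot be separated in a summed level, so shares of cells are given as well.

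Killer lymphocytes store granzymes, which are proteases, with perforin in secretory granules. On contact with a target cell perforin opens its membrane and lets the granzymes in, where granzyme B cleaves caspases and other substrates. Nkg7 takes part in the release of these granules, cystatin F restrains the cathepsins that activate progranzymes, and Fas ligand kills by the separate route of the death receptor Fas. In mice NK cells and activated CD8 T cells are the classic users of this machinery, and activated regulatory T cells can also make granzyme B.

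The genes do not lie in 1 cluster. In GRCm38, Gzma (chr13:113093825-113100981) and Gzmk (chr13:113171608-113225908) are neighbours on the same strand, 70.6 kb apart, while Gzmb lies at chr14:56258838-56262260. Prf1 is at chr10:61297833-61304680, Nkg7 at chr7:43437073-43438249, Fasl at chr1:161780689-161788495 and Cst7 at chr2:150570415-150578944. The 250 bases before the RefSeq start (GRCm38.p6, all 3 on the minus strand, written 5′ to 3′ along the gene) are shown for the 3 granzymes, which the results below turn on. The gene positions above are GENCODE's, and for Gzmk the RefSeq start and its window lie inside that interval. Capitals mark matches, on either strand, to the letters TGTGGT (the core bound by Runx factors), TCACAC (a core of T-box factor sites) and TGANTCA (the AP-1 site).
Gzma, chr13:113100982-113101231: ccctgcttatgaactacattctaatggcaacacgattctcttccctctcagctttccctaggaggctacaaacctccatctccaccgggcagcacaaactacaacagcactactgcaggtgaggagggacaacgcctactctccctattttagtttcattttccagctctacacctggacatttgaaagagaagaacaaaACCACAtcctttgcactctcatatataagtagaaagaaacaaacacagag
Gzmk, chr13:113180966-113181215: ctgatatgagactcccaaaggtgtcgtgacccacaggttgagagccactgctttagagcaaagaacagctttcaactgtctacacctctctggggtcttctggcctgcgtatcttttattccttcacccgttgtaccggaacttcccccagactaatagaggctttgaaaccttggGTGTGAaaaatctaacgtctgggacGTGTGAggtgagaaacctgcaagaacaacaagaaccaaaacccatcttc
Gzmb, chr14:56262335-56262584: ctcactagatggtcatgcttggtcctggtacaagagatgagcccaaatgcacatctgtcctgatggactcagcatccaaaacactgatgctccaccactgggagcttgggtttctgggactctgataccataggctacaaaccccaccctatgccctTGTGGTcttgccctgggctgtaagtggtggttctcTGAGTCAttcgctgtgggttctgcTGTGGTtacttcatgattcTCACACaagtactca
The Gzmb window held 2 Runx, 1 T-box and 1 AP-1 match, the Gzma window 1 Runx match, and the Gzmk window 2 T-box matches. Of the other 4 windows, Prf1 and Cst7 had 1 Runx match each, Nkg7 had 1 Runx and 1 T-box match, and Fasl had none of the 3. Among 32851 promoter windows of this length, 14.0% held the Runx letters, 12.3% the T-box letters and 6.75% the AP-1 letters. A match is a run of letters and was not tested as a site.

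The populations were exclusive, so that a cell with Cd8b1 and Cd4, for example, entered neither; Cd4 was allowed beside Foxp3 and Siglech. PBS and DT held 444 and 426 cells in the Cd8b1 gate, 366 and 359 in the Cd4 gate and 151 each in the Foxp3 gate. There were 95 and 111 cells in the Trdc gate, 215 and 184 in the Ncr1 gate and 62 and 45 in the Siglech gate. The NK receptor gene Klrb1c was detected in 87.0% and 90.2% of the Ncr1 gate, and Cd3e, part of the T cell receptor complex, in 6.05% and 3.26%. Cd3e was found in 88.5% and 82.6% of the Cd8b1 gate, and Ikzf2, a regulatory T cell gene, in 94.0% and 93.4% of the Foxp3 gate. The Trdc gate went partly against its name as a gamma-delta T cell population: Cd3e was detected in 70.5% and 59.5% of its cells and Klrb1c in 34.7% and 32.4%. In the Siglech gate Cd3e was detected in 3.23% and 2.22% of cells, while Ccr9, a gene of plasmacytoid dendritic cells, was detected in 62.9% and 64.4%.

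**Figure D1:**
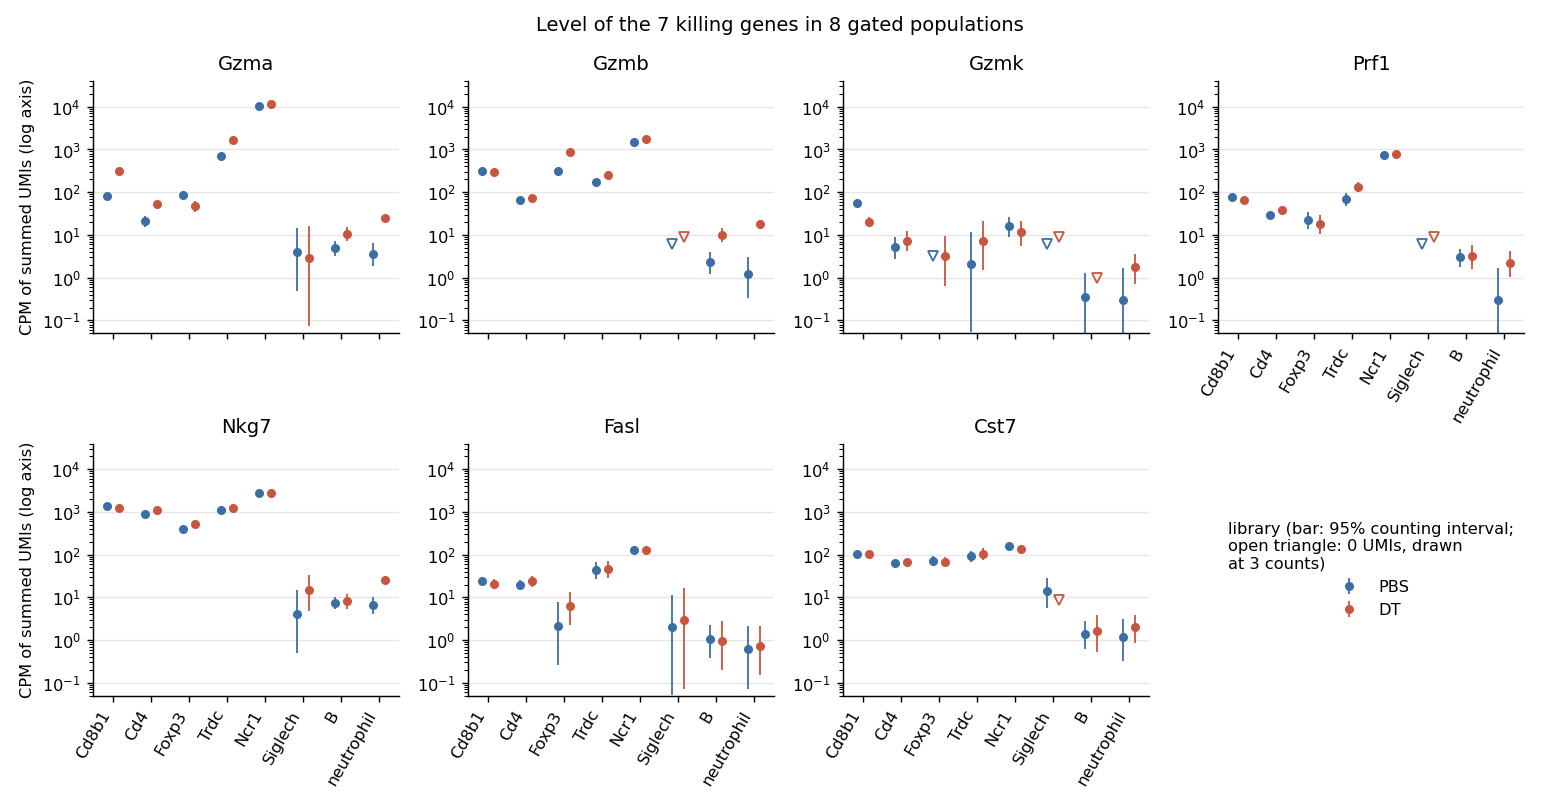
Level of each gene (CPM of summed UMIs, log axis) in the 6 lineage gates and in B cells and neutrophils, which serve as background; blue is PBS, red is DT, bars are 95% counting intervals and open triangles mark 0 UMIs at the limit of 3 counts. Gzma in the Ncr1 gate lies at 10143 and 11318 CPM, and Gzmb in the Foxp3 gate at 313 and 881 CPM.

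NK cells, the Ncr1 gate, carried the whole granule programme at the highest level of the 6 populations for every gene except Gzmk, and their values lay close together in both libraries. Gzma was at 10143 CPM in PBS and 11318 in DT and was detected in 85.6% and 89.7% of the cells. Gzmb stood at 1495 and 1778 CPM (79.1% and 84.8% of cells), Prf1 at 731 and 764 CPM (79.5% and 85.3%), and Nkg7 at 2723 and 2851 CPM (97.2% and 97.8%). Fasl was at 127 and 132 CPM, and Cst7 at 158 and 133 CPM. For comparison, B cells had 4.93 and 10.7 CPM of Gzma, and neutrophils 3.64 and 24.7 CPM. With the sexes pooled, none of the 7 genes passed a 1.5-fold difference in this gate. Of all genes measured there, 6.96% passed it upwards in DT and 5.79% downwards. The pooled ratio of DT to PBS was 1.12 (1.09 to 1.15) for Gzma, 1.19 (1.11 to 1.28) for Gzmb and 1.05 (0.941 to 1.16) for Prf1. Within each sex Gzma did not rise. Its ratio was 0.989 (0.924 to 1.06) for males and 0.811 (0.750 to 0.879) for females. For Gzmb the ratios were 0.868 (0.716 to 1.05) and 1.08 (0.876 to 1.35). Prf1 had 1.26 (1.00 to 1.59) and 0.771 (0.567 to 1.07). Cst7 had 0.450 (0.199 to 0.895), from 9 DT UMIs, and 1.22 (0.527 to 3.45). Only 13 PBS cells were called female. Here and below, a gene is said to pass the fold when its log2 ratio, with 5 CPM added to both sides, reaches 1.5-fold.

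The NK cells also differed from T cells in how many of the genes a single cell carried. After every cell had been thinned to 1000 UMIs, an NK cell showed a mean of 3.09 of the 7 genes in PBS and 3.14 in DT, and 66.8% and 72.7% of NK cells showed at least 3. In the Cd8b1 gate the means were 0.91 and 0.90, and 7.09% and 6.13% of cells showed at least 3. Among NK cells with any of the 3 granzymes, 54.4% and 49.4% also had Prf1, against 15.6% and 16% of NK cells without one. Gzmb in NK cells was nearly always found with Gzma: 96.0% (91.0% to 98.7%) of Gzmb-positive NK cells in PBS and 97.4% (92.7% to 99.5%) in DT had both. Detection of any pair in a cell depends on the cell's remaining depth, and these shares are descriptions.

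**Figure D2:**
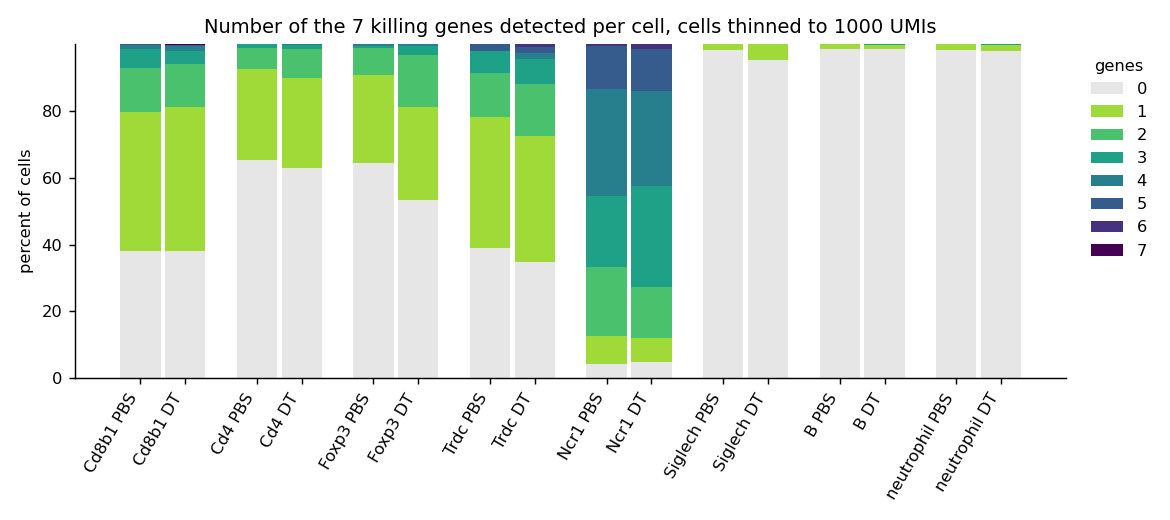
Share of cells (percent, cells thinned to 1000 UMIs) in which 0 to 7 of the genes were detected, per gate and library, with B cells and neutrophils as background. At least 3 genes were detected in 66.8% and 72.7% of the Ncr1 gate, against 7.09% and 6.13% of the Cd8b1 gate.

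Ncr1-positive cells with Gzma and without it differed in other genes. In PBS and DT, the chemokine gene Ccl5 was detected in 97.7% and 98.7% of Gzma-positive NK cells and in 67.6% and 64.3% of the others. Klrg1, a receptor of mature NK cells, was found in 11.9% and 17.4% of the Gzma-positive cells. It was found in 0 of the 37 and 28 others, which at 3 counts allows shares of up to 8.11% and 10.7%. The exact intervals of Klrg1 overlapped in both libraries. They were 7.50% to 17.6% against 0 to 9.49% in PBS, and 11.8% to 24.3% against 0 to 12.3% in DT. The chemokine receptor gene Cxcr3 was rarer with Gzma than without it, at 1.13% against 21.6% in PBS and 2.58% against 3.57% in DT. The second of these contrasts lies within counting error.

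Regulatory T cells, the Foxp3 gate, held Gzmb with little Prf1 or Gzma, and Gzmb was higher in the DT library. Gzmb had 294 UMIs in PBS (313 CPM, 278 to 351) and 840 in DT (881 CPM, 823 to 943), a ratio of 2.81 (2.46 to 3.23) and a log2 ratio of 1.48. More cells were positive, 29.1% (22.0% to 37.1%) against 42.4% (34.4% to 50.7%), and each held more: the median positive cell had 3.5 UMIs in PBS and 9 in DT, and the highest 46 and 72. Cells with at least 10 UMIs numbered 10 in PBS and 31 in DT. These counts per cell are not corrected for depth, and the median cell of the gate held 3998 UMIs in PBS and 4783 in DT. At 1000 UMIs per cell the shares were 20.8% (14.6% to 28.2%) and 31.8% (24.4% to 39.9%). The intervals of the 2 levels did not overlap, while those of both shares did. In the background populations Gzmb was also higher in DT, but at low levels: 2.29 and 10.0 CPM in B cells, and 1.21 and 18.0 CPM in neutrophils.

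Gzmb was higher in the Foxp3 gate than in the Cd8b1 gate in DT, at 881 and 297 CPM, while in PBS both were at 313 CPM. A single PBS cell held 272 of the 1037 Gzmb UMIs of the Cd8b1 gate. Without the top cell of each gate and library, a setting chosen after seeing the data, the Foxp3 and Cd8b1 gates were at 266 and 232 CPM in PBS and at 811 and 268 CPM in DT. Of all Gzmb UMIs in the library, the Foxp3 gate held 6.25% in PBS and 16.5% in DT, from an equal number of cells. NK cells, at 32.2% and 30.5%, were the largest of the 6 sources.

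**Figure D3:**
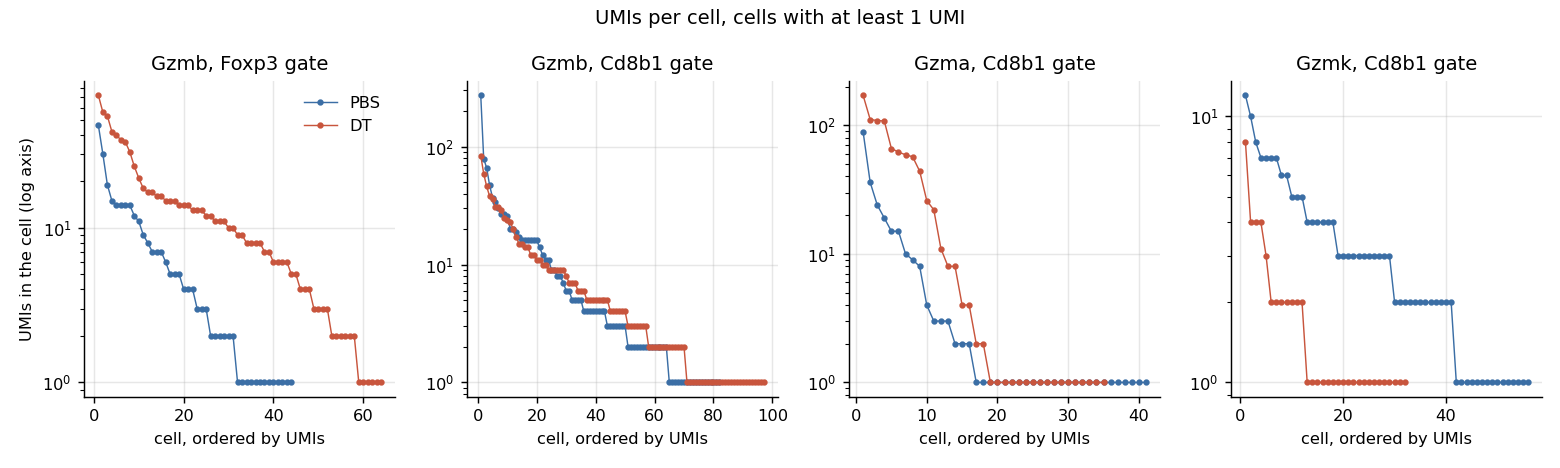
UMIs per cell (log axis) in each cell with at least 1 UMI, ordered from the highest, for Gzmb in the Foxp3 gate and for 3 granzymes in the Cd8b1 gate; blue is PBS, red is DT. The Foxp3-gate curve of Gzmb lies higher in DT over its whole length, and 5 cells supply 68.0% and 63.4% of the Gzma UMIs of the Cd8b1 gate.

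Perforin, the other granzymes and Fas ligand were scarce in regulatory T cells, while Nkg7 and Cst7 were present. Prf1 had 21 and 17 UMIs in the Foxp3 gate (22.4 and 17.8 CPM), and 1 of 31 Gzmb-positive cells in PBS and 1 of 47 in DT had it at 1000 UMIs. Gzma was detected in 5 and 7 cells. Its 81 UMIs in PBS (86.3 CPM), of which a single cell held 77, against 45 in DT (47.2 CPM), gave a log2 ratio of -0.81. Gzmk had 0 and 3 UMIs and Fasl 2 and 6, too few to compare; the 0 of Gzmk allows up to 3.19 CPM. Nkg7 was at 391 and 519 CPM (log2 ratio 0.41), in 35.1% and 41.7% of cells. Within each sex its contrast was larger. Male-called cells had 408 CPM in PBS and 1115 CPM in 13 DT cells, a ratio of 2.73 (2.15 to 3.45). Female-called cells had 116 CPM in PBS, from 1 positive cell, and 421 CPM in DT, a ratio of 3.64 (1.40 to 13.5). Cst7 was at 72.4 and 69.2 CPM (-0.06), in 23.2% and 27.2%. Of the 5 genes measured in this gate, 1 was past the fold upwards and 1 downwards, beside 7.64% and 5.40% of all genes.

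Gzmb in the Foxp3 gate was past the fold under all 23 other settings tried, with log2 ratios from 1.09 to 2.59. Male-called cells alone gave 332 CPM in 86 PBS cells and 750 CPM in 13 DT cells, and female-called cells alone 145 CPM in 6 PBS cells and 897 CPM in 90 DT cells. The smaller groups hold 5 Gzmb-positive cells (male, DT) and 1 (female, PBS). The summed neutrophil markers were also higher in this gate in DT, at 4904 CPM against 2247, with 5 of 5 markers detected in both; their part in the Gzmb result was not tested, and the level of Gzmb in neutrophils themselves was 18.0 CPM. NK markers were low in the gate, at 35.1 and 15.7 CPM for 6 genes, 2 and 3 of them at 0.

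Single genes of cytotoxic and activated T cells, and 4 of 8 naive and memory genes, were past the fold in the Foxp3 gate. Of all genes there, 7.64% were past it upwards and 5.40% downwards. Of 14 measured genes of granule assembly and release, 2 were past the fold, both higher in DT: Ctsw (cathepsin W, a protease of cytotoxic lymphocytes; 46.9 and 123 CPM) and Sytl2 (a Rab27 effector in granule docking; 62.8 and 110 CPM). The median of this list was 0.11 on the log2 scale, against 0.04 over all genes. Of 8 effector transcription factors, 1 was past the fold: Prdm1, encoding Blimp-1, at 51.1 and 81.8 CPM. The median of these factors was -0.001. Of 8 genes of naive and memory T cells, 4 were lower and none higher: Ccr7 (117 and 42.0 CPM), Tcf7 (59.6 and 17.8 CPM), Lef1 (53.2 and 33.6 CPM) and Klf2 (394 and 228 CPM). The list's median was -0.52. Among 11 measured genes of the death receptor list, Tnf was higher (9.58 and 56.7 CPM) and Ifng lower (25.6 and 7.34 CPM), and none of 5 measured granzyme inhibitor genes passed.

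Within the gate, cells with and without Gzmb were compared for 19 genes of cell state, a comparison added after the data had been seen, from which Icos and Ccl5 are named for their values. Icos, a costimulatory receptor, was detected in 58.1% (39.1% to 75.5%) of Gzmb-positive and 30.5% (22.4% to 39.7%) of other cells in PBS, and in 42.6% and 30.7% in DT. Ccl5 was found in 46.8% (32.1% to 61.9%) of Gzmb-positive and 20.8% of other cells in DT, and in 25.8% and 19.5% in PBS. Of these 4 contrasts, Ccl5 in DT alone had intervals that did not overlap.

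In CD8 T cells, the Cd8b1 gate, Gzmb was close to level between the libraries when the sexes were pooled. The neighbouring granzymes of chromosome 13 went in opposite directions. Gzmb had 1037 UMIs in PBS (313 CPM) and 826 in DT (297 CPM), a ratio of 0.949 (0.865 to 1.04). It was detected in 18.5% and 22.8% of cells. Within each sex Gzmb was not level. Male-called cells had 360 CPM in PBS and 270 CPM in DT, a ratio of 0.751 (0.595 to 0.939). A single cell held 272 of the 768 Gzmb UMIs of the male-called PBS cells. The male contrast leans on that cell and was not computed without it. Female-called cells had 110 CPM in 27 PBS cells, from 1 positive cell, and 290 CPM in 199 DT cells, a ratio of 2.62 (1.60 to 4.63). Gzmk had 181 UMIs in PBS (54.6 CPM, 47.0 to 63.2) and 57 in DT (20.5 CPM, 15.5 to 26.6), which is 2.66-fold (1.97 to 3.65) lower in DT, with a log2 ratio of -1.23. Gzma had 269 UMIs in PBS (81.2 CPM, 71.8 to 91.5) and 891 in DT (321 CPM, 299.9 to 342), a ratio of 3.95 (3.44 to 4.54) and a log2 ratio of 1.92. Of the 7 genes, 1 was past the fold upwards and 1 downwards, beside 2.48% and 1.55% of all genes in this gate. Both granzymes are genes of effector T cells, and Gzmk is typical of effector memory cells.

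The higher Gzma level in CD8 T cells came from few cells. In PBS 41 of 444 cells had it and in DT 35 of 426, which are 9.23% and 8.22%. At 1000 UMIs the order was the other way, 2.52% (1.26% to 4.46%) and 4.72% (2.90% to 7.19%), with intervals that overlapped in both cases. Of the 269 PBS UMIs 183 lay in the top 5 cells, and of the 891 DT UMIs 565, and the highest single cell 89 and 171. Cells with at least 10 UMIs numbered 7 and 12. Among male-called cells the difference was turned around, with 75.9 CPM in 241 PBS cells and 6.22 CPM in 55 DT cells, the latter from 2 UMIs, a ratio of 0.0819 (0.00983 to 0.301). Among female-called cells there were 117 CPM in 27 PBS cells and 341 CPM in 199 DT cells.

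Gzmk, in contrast, had both fewer positive cells and fewer UMIs in each. The share of positive cells was 12.6% (9.67% to 16.1%) in PBS and 7.51% (5.19% to 10.4%) in DT, and 5.72% and 2.36% at 1000 UMIs. The intervals of the shares overlapped in both cases. In cells with Mki67 or Top2a the unthinned shares were 29.4% and 9.09%, and in cells without them 8.64% and 7.22%. Over the whole gate the median positive cell held 3 UMIs in PBS and 1 in DT. Its direction was the same under all 23 other settings, and it passed the fold in 22 of them, the exception being the difference of mean deposited log2 values (-0.47). Male-called cells gave 50.6 and 31.1 CPM, and female-called cells 41.4 and 12.7 CPM, the last PBS value resting on 1 positive cell of 27. The ratios of DT to PBS were 0.614 (0.286 to 1.17) for males, from 10 DT UMIs, and 0.306 (0.119 to 0.932) for females. The male interval did not exclude equal levels. The Cd8b1 gate held 73.3% of all Gzmk UMIs in PBS and 45.2% in DT.

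Prf1, Nkg7, Fasl and Cst7 differed little in CD8 T cells when the sexes were pooled. Prf1 was at 79.1 and 64.4 CPM, with a ratio of 0.814 (0.670 to 0.989). Nkg7, at 1381 and 1209 CPM, was the most widely detected of the 7, in 87.6% and 83.3% of cells. Fasl stood at 24.8 and 20.5 CPM and Cst7 at 107 and 105 CPM. Within each sex Nkg7 had a ratio of 0.904 (0.815 to 1.00) for males and 1.52 (1.27 to 1.83) for females, the latter with 27 PBS cells. The intervals of Prf1, Fasl and Cst7 did not exclude equal levels in either sex. The gate was the largest of the 6 sources of Nkg7, with far more positive cells than the Ncr1 gate (389 against 209 in PBS).

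Gzmb-positive CD8 T cells carried Ccl5 more often than the others in both libraries. At 1000 UMIs, Ccl5 was detected in 92.5% (79.6% to 98.4%) of Gzmb-positive and 36.0% (31.3% to 41.0%) of other cells in PBS, and in 78.7% (64.3% to 89.3%) and 31.8% (27.2% to 36.8%) in DT. Lag3 and Pdcd1, 2 inhibitory receptor genes, went with Gzmb in PBS (22.5% against 5.04%, and 25.0% against 7.30%). In DT the shares were 2.13% against 3.45% for Lag3 and 10.6% against 5.84% for Pdcd1, and 40 and 47 Gzmb-positive cells stand behind the values. Ifng was detected in 12.5% and 14.9% of Gzmb-positive cells and in 3.78% and 0.531% of others. The difference of these contrasts between libraries was not tested.

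The remaining machinery of the Cd8b1 gate showed single genes past the fold, beside 2.48% of all genes upwards and 1.55% downwards. Serpinb9, an inhibitor of granzyme B, was higher in DT (33.8 and 70.5 CPM), as 1 of 5 measured inhibitor genes. Cd63, a granule membrane protein, was the 1 of 14 granule genes past the fold (30.8 and 52.9 CPM). Of 13 death receptor genes, Tnfrsf10b (5.43 and 12.6 CPM) and Tnf (18.1 and 29.9 CPM) were higher and Ifng was lower (70.3 and 41.0 CPM). None of 9 effector transcription factors and none of 8 naive and memory genes passed.

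**Figure D4:**
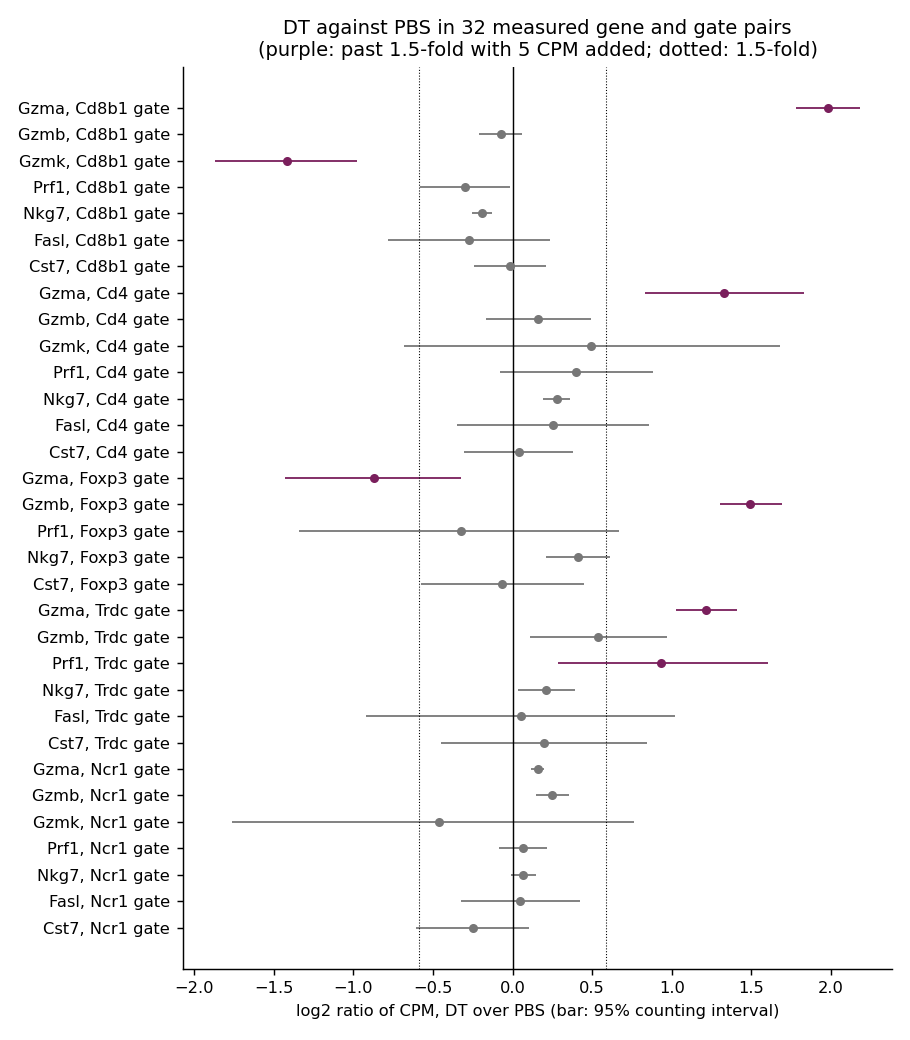
log2 ratio of CPM, DT over PBS, for the 32 gene and gate pairs with at least 20 UMIs, with 95% counting intervals; purple marks pairs past 1.5-fold with 5 CPM added, and dotted lines mark 1.5-fold. There are 5 pairs past the fold upwards and 2 downwards, 4 of the 7 being Gzma.

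In the Trdc gate Gzma and Prf1 were higher in DT, and both lay mainly in cells with NK receptor genes. Gzma had 335 UMIs in PBS (709 CPM) and 679 in DT (1647 CPM), a log2 ratio of 1.21, and was found in 11.6% (5.92% to 19.8%) and 24.3% (16.7% to 33.4%) of cells. Prf1 had 33 and 55 UMIs (69.8 and 133 CPM, log2 ratio 0.89), in 21.1% and 21.6% of cells. Gzmb was at 176 and 255 CPM (0.52). Of 6 genes measured in the gate, 2 were past the fold upwards and none downwards, beside 10.8% and 8.92% of all genes.

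Cells of the gate with Klrb1c, Klre1 or Klra8, 3 NK receptor genes, made up 45 of the 95 PBS cells and 44 of the 111 DT cells. They held 334 of the 335 Gzma UMIs in PBS and 673 of the 679 in DT. In them Gzma was at 1401 and 3877 CPM and detected in 10 and 22 cells. In the other 50 and 67 cells it was at 4.26 and 25.1 CPM, against 149 and 105 CPM of Gzmb there. NK markers summed over the whole gate were also higher in DT, at 1237 CPM against 931, with 5 of 6 detected in both and Ncr1 absent by the gate; their part in the result was not tested. This split was chosen after the data had been seen. When cells that also had another of the 6 gate genes were let in, the log2 ratios became -0.08 for Gzma and -0.12 for Prf1. Among female-called cells, of which PBS had 4, they were -2.25 and -2.13. Males, with 48 PBS and 10 DT cells, kept the pooled direction. Their Gzma was at 625 and 1991 CPM, a ratio of 3.18 (2.39 to 4.20). For Prf1 the male ratio was 5.89 (2.54 to 13.3). These DT values rest on 3 cells with Gzma and 2 with Prf1.

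Several effector genes of the Trdc gate were lower in DT although Gzma and Prf1 were higher, in a gate where 10.8% of all genes passed the fold upwards and 8.92% downwards. Of 8 measured effector transcription factors, 4 were lower and none higher: Tbx21 (69.8 and 38.8 CPM), Eomes (76.1 and 41.2 CPM), Zeb2 (140 and 77.6 CPM) and Batf (63.4 and 24.3 CPM). Fas and Ifng were the 2 of 8 death receptor genes that were lower. Unc13d and Sytl2, both of granule release, and Serpinb9 were higher. These 9 genes rest on 6 to 74 UMIs per library.

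In the Cd4 gate, read as CD4 T cells without Foxp3, granzymes were rare. By its markers the gate was mixed. In PBS and DT, 5 T cell markers summed to 4342 and 4899 CPM, and 7 mononuclear phagocyte markers to 5163 and 3698 CPM. The phagocyte sums were the highest of the 6 gates, and their part in the low granzyme shares was not tested. In PBS 7 of 366 cells had Gzma, and in DT 6 of 359. Its 52 and 107 UMIs (21.0 and 52.6 CPM, log2 ratio 1.15) lay to 96.2% and 99.1% in the top 5 cells. It was the only 1 of 7 genes past the fold, upwards, beside 4.19% of all genes, and none was past it downwards, beside 2.54%. Male-called cells had 29.98 CPM of Gzma in PBS from 3 positive cells, and 0 UMIs in 36 DT cells, which allows up to 14.7 CPM. Female-called cells had 0 UMIs in 15 PBS cells, which allows up to 39.5 CPM, and 87.9 CPM in DT from 4 positive cells. With the sexes pooled, Gzmb stood at 65.0 and 72.7 CPM, in 5.74% and 6.69% of cells, and Prf1 at 29.0 and 38.3 CPM. Male-called cells had 82.3 and 0 CPM of Gzmb, and 38.9 and 4.89 CPM of Prf1. Female-called cells had 0 and 86.2 CPM of Gzmb, and 0 and 56.1 CPM of Prf1. The limits at 0 UMIs are those given for Gzma. Nkg7 was common, at 902 and 1093 CPM, in 47.5% and 44.0% of cells. Its ratio was 0.724 (0.608 to 0.857) for males and 2.18 (1.64 to 2.98) for females, the latter with 15 PBS cells.

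Plasmacytoid dendritic cells, the Siglech gate, had no detected granzyme B, granzyme K or perforin. Gzmb, Gzmk and Prf1 had 0 UMIs in 62 PBS cells and 45 DT cells, which allows levels of up to 6.03 and 8.74 CPM and, at 3 counts, shares of cells with a UMI of up to 4.84% and 6.67%. Gzma had 2 and 1 UMIs, Nkg7 2 and 5, Fasl 1 and 1, and Cst7 7 and 0. Cst7 in PBS, at 14.1 CPM (5.66 to 29.0), lay above B cells (1.41 CPM, 0.609 to 2.78) and neutrophils (1.21 CPM, 0.331 to 3.11). No gene reached 20 UMIs, so none was compared; over all genes of the gate 10.7% were past the fold upwards and 8.66% downwards.

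**Figure D5:**
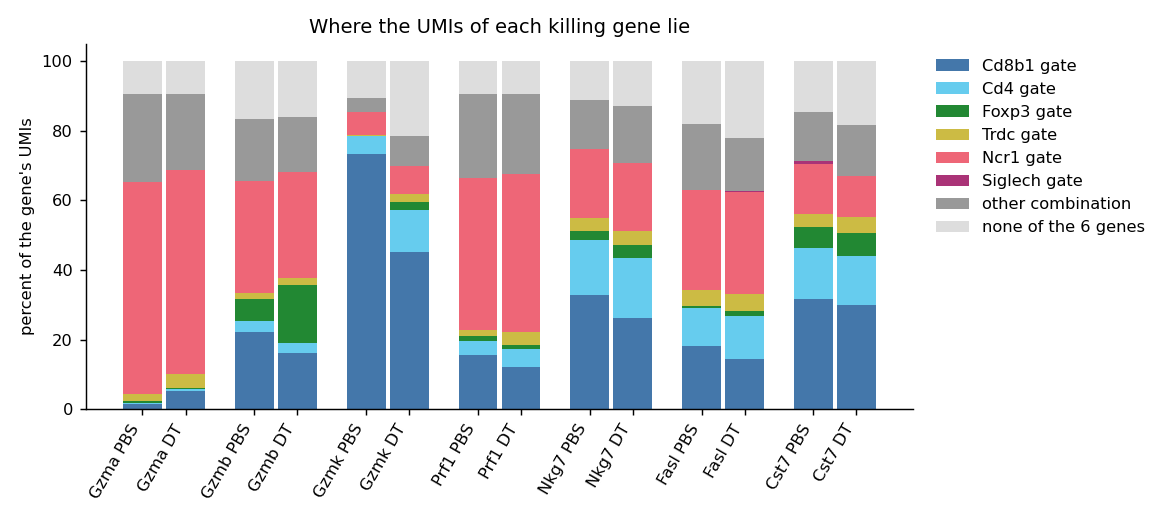
Where the UMIs of each gene lay (percent of its UMIs in the library), per library, over the 6 exclusive gates, cells with another combination of the 6 genes, and cells with none. The Ncr1 gate holds 61.0% and 58.5% of Gzma, and the Cd8b1 gate 73.3% and 45.2% of Gzmk.

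The order of the populations differed from gene to gene. For Gzma the Ncr1 gate was followed by the Trdc gate in both libraries, and for Prf1 by the Cd8b1 gate in PBS, with overlapping intervals, and the Trdc gate in DT. For Gzmb it was followed by the Cd8b1 and Foxp3 gates, level with each other in PBS, and by the Foxp3 gate alone in DT. Gzmk was highest in the Cd8b1 gate in both libraries, with the Ncr1 gate next at 15.8 and 11.4 CPM. In DT the intervals of Gzmk in these 2 gates overlapped (15.5 to 26.6 CPM and 5.49 to 21.0 CPM), and in PBS they did not. Levels of Cst7 were the most even, between 64.6 and 158 CPM in PBS and between 66.3 and 133 CPM in DT over the 5 gates other than Siglech.

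The genes whose levels ran most like each member were read from log2(CPM + 5) over 16 values, 8 populations in each library, among 11813 genes. Pearson's r is given as a description, since the values share 2 libraries. For Gzma the nearest were Cuedc1 (0.976), Gm33104 and Kcnj8; for Gzmb, Il2rb (0.951), a subunit of the receptors for IL-2 and IL-15, then Cysltr2 and Sytl2. For Prf1 they were Gm14029 (0.983), Sytl3 and Tbx21, and for Nkg7, Ms4a4b (0.988), Cd96 and Gm2682. Fasl ran with Klrc2 (0.968), with Prf1 itself (0.959) and with Klrc1. Cst7 ran with Prkcq (0.963), Gm36932 and Trbc1, and Gzmk, the loosest, with Gm29243 (0.917), Xcl1 and Crtam.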

How the data were processed

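The authors deposited log2(CPM + 1) per cell and gene. Per the submitters' processing notes, Partek, STAR, Seurat and the mm10 genome were used; their versions and settings were not given in the sources used here. Here the log was undone, and division by the smallest step of each cell gave whole UMIs (100% of values above 0 whole within 1%). The design allowed for this. The filter on cells (minimum 200 genes and 500 UMIs, maximum 10% mitochondrial) removed 51 PBS and 307 DT cells. No doublet caller was run, and 8 barcodes occurred in both libraries. Gates required at least 1 UMI. UMIs were summed per gate, and ratios were formed with 5 CPM added. Intervals are Clopper-Pearson for shares and exact Poisson or conditional binomial for levels and ratios. Zeros are bounded by 3 counts over the gate. Calculations used Python 3.11.15, numpy 2.4.6, scipy 1.17.1 and pandas 2.3.3, and were tested on simulated data. The genes and lists were chosen with earlier results of these data known. Named genes were the 7 members, list genes past the fold, and the 3 most alike genes per member; cell-state partners (from a list of 19 genes) and gate markers were named beside them, the partners after their values were seen. Promoters are RefSeq's, matched for 7 of 7 genes, and gene positions are those of GENCODE vM21. Alternatives changed the gates, cell filters, depth, scaling, added CPM, sex and cell state. Of the lists, 11 genes are not analysed here. Some results that need withheld items are not reported here.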

Additional observations from a re-analysis of the deposited data

Results flagged for a closer look

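Gzma went in opposite directions in different gates. Its log2 ratio of DT to PBS was 1.92 in the Cd8b1 gate, 1.15 in the Cd4 gate and 1.21 in the Trdc gate, against -0.81 in the Foxp3 gate. The difference between the gates was not tested, since each has 1 library per group. In the Trdc gate, cells with NK receptor genes held 334 of the 335 Gzma UMIs in PBS and 673 of the 679 in DT. In the Foxp3 gate the value rests on 5 cells in PBS and 7 in DT, with 77 of the 81 PBS UMIs in a single cell.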

How the results depend on the processing

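No paired analysis was possible because each group is 1 library. Of 23 other settings, 19 were planned and 4 were chosen after seeing the data. The main count was 5 pairs past the fold upwards and 2 downwards. It became 3 and 4 with at least 2 UMIs of the gate gene, 8 and 1 at 1000 UMIs per cell, and 13 and 5 in female-called cells. Downward counts were 8 in male-called cells, 1 for mean deposited log2 values and 1 without the top 5 cells. Leaving NK receptor-positive cells out of the T cell gates gave 3 upwards. The log2 ratio of Gzma turned in the Cd4 gate (-1.41 with at least 2 UMIs, -2.81 in male-called cells, where DT had 0 UMIs) and in the Cd8b1 gate (-2.85 in male-called cells, where DT had 2 UMIs). It turned in the Trdc gate (-0.078 with inclusive gates, -2.25 in female-called cells), as did Prf1 there (-0.12 and -2.13). In the Foxp3 gate Gzma came to 0.10 for deposited log2 means, 3.99 in female-called cells and 2.17 without Mki67 or Top2a cells, where PBS had 0 and 3 UMIs. Values against 0 UMIs are set by the 5 CPM added; the 6 female-called PBS cells allow up to 86.8 CPM, above the 74.6 CPM of DT, so 3.99 shows no direction. The cause was not tested. Scaling factors moved ratios by at most 0.10. Depth limits Gzmk and Fasl in the Foxp3 and Siglech gates.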

Other observations

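Cells with both Ncr1 and Trdc, which no gate holds, numbered 81 in PBS and 71 in DT and carried the killing genes at NK cell levels. Gzma was at 9745 and 8813 CPM in them, in 90.1% and 88.7% of cells, Gzmb at 1425 and 1668 CPM and Prf1 at 849 and 737 CPM. Fasl was at 162 and 96.9 CPM. A further 26 PBS and 42 DT cells had Klrb1c and Klrd1 but no Cd3 gene and none of the 6 gate genes. Gzma was detected in 23 and 39 of them, at 7194 and 6971 CPM, and Prf1 in 20 and 21, at 571 and 492 CPM.

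Cells with a Cd3 gene and none of the 6 gate genes also held Gzmb. There were 515 in PBS and 483 in DT, with Gzmb at 196 and 278 CPM in 11.3% and 15.7% of cells. Prf1 was at 17.4 and 19.0 CPM, and Gzma at 61.6 and 130 CPM, in 18 and 26 cells.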
